A study of Mus musculus with 8 samples.

Results

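The Sin3-binding KLFs, as taken here, are the 5 genes Klf9, Klf10, Klf11, Klf13 and Klf16 of group 3 of the Krüppel-like factor (KLF) family. Klf14 was not put in this set and had 0 counts at every time. The 5 members were taken by name from 47069 gene rows, not by a threshold on a measured value. The choice was made with earlier results of these data known. All 5 had enough counts to be tested among 14263 genes. RNA was sequenced from GFP+ leukaemia cells of C57BL/7 mice (as the labels write the strain). The cells held MLL-AF9, a fusion of the MLL and AF9 genes found in acute myeloid leukaemia, and a TetO-Klf4 transgene, from which doxycycline induces the related factor KLF4. The 8 libraries of cells sorted from bone marrow fell into 4 time points, 0h, 6h, 12h and 24h, with 2 libraries each, and every group carried both MLL-AF9 and the transgene. The labels leave unsaid when the count of hours starts, which element drives the doxycycline-dependent activator, or whether replicates came from separate mice. The p-values therefore rest on the spread between libraries alone, and that spread may be technical. Doxycycline-treated cells that lack the transgene were not analysed here, so time, doxycycline and KLF4 cannot be told apart.

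KLFs bind GC-rich and CACCC elements in promoters through zinc fingers at the end of the protein. The group 3 members carry near the other end a short helix that docks on SIN3A, the scaffold of a complex with the histone deacetylases HDAC1 and HDAC2, and are known mainly as repressors. Klf10 and Klf11 are early response genes of transforming growth factor beta (TGF-beta), a signal that restrains the growth of many blood progenitors. Klf9 is a target of the glucocorticoid and thyroid hormone receptors and, with Klf10, an output of the circadian clock. Klf13 is known as an activator of the chemokine gene Ccl5 in T cells and as a regulator of erythroid genes.

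The labelled identity was checked against marker genes. All 15 leukaemia and myeloid markers had counts in every group, with Hoxa9 at 413 ± 11.8 CPM at 0h and 449 ± 11.2 CPM at 24h (mean ± SD, n = 2; CPM is a count scaled to the library's total, here after TMM normalisation). Their summed level was between 4221 and 4255 CPM at 0h and between 3713 and 3798 CPM at 24h. The largest part of it was Ctsg, at 1520 CPM at 0h and 1296 CPM at 24h. Csf1r was the lowest of the list, at 1.14 ± 0.240 CPM at 0h and 1.32 ± 0.271 CPM at 24h. That is below Lck of the T cell list (6.63 CPM) and Cd79b at 0h. The progenitor marker Cd34 stood at 243 ± 1.55 CPM at 0h and 116 ± 1.33 CPM at 24h, and the granule protease gene Prtn3 at 389 and 276 CPM. Cd3e, Cd3g and Trbc2 of the T cell list and Ms4a1 and Pax5 of the B cell list had 0 counts at 0h and 24h. The T cell list summed to between 7.14 and 7.69 CPM at 0h and between 10.6 and 10.8 CPM at 24h, and the NK cell list to between 6.54 and 8.09 CPM and between 13.1 and 13.7 CPM. The B cell list went from between 11.5 and 12.7 CPM to between 8.74 and 9.04 CPM, most of it Cd79b (11.4 and 7.74 CPM). The megakaryocyte list went from between 14.1 and 14.3 CPM to between 9.65 and 10.7 CPM. The part of these shifts in the results below was not tested. The erythroid list stayed within 2.21 and 3.43 CPM. In the endothelial and stromal list Pecam1, which myeloid progenitors also express, stood at 184 ± 2.96 CPM at 0h, and the other markers summed to at most 0.836 CPM. Each library held between 20394546 and 26041347 gene counts, and 0 counts allowed a level of up to 0.114 to 0.151 CPM, a limit that covers counting error alone. The chi-square between replicates over its degrees of freedom was 1.83 to 3.79, above that of counting noise. Klf4 itself stood at 2.71 and 4.42 CPM at 0h, 152 and 151 CPM at 6h, 115 and 111 CPM at 12h, and 76.9 and 78.8 CPM at 24h.

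The 5 genes lie on 5 chromosomes of build mm10 (GENCODE M21). Klf9 (ENSMUSG00000033863) spans chr19:23141226-23168134 on the plus strand, with 4815 exonic bases. Klf10 (ENSMUSG00000037465) lies at chr15:38291463-38300706 on the minus strand, with 4179 exonic bases. Klf11 (ENSMUSG00000020653) lies at chr12:24651274-24662789 on the plus strand, with 4340. Klf13 (ENSMUSG00000052040) is the longest, at chr7:63886351-63938915 on the minus strand, with 7531. Klf16 (ENSMUSG00000035397) is at chr10:80567124-80577321 on the minus strand, with 2674. The longest transcript of Klf16 is the most GC-rich of the 5, at 60.4% GC, against 55.5% for Klf13 and 46.9% to 49.0% for the other 3.

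RefSeq promoters (GRCm38.p6, the assembly of mm10), 250 bases before the transcription start and 50 from it on, were available for 3 of the 5 members, Klf9, Klf11 and Klf13. They are shown because these genes rose in the same libraries as a factor that binds CACCC, and capitals mark each CACCC or its reverse GGGTG. The windows are chr19:23140976-23141275 (plus), chr12:24651121-24651420 (plus) and chr7:63938866-63939165 (minus), each written 5′ to 3′ on the gene's strand.
Klf9: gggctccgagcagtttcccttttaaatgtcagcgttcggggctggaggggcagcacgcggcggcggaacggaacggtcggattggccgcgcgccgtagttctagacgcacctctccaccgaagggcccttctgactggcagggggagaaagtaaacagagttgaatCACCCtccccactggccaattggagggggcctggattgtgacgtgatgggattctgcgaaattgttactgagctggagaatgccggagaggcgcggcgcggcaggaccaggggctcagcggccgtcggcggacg
Klf11: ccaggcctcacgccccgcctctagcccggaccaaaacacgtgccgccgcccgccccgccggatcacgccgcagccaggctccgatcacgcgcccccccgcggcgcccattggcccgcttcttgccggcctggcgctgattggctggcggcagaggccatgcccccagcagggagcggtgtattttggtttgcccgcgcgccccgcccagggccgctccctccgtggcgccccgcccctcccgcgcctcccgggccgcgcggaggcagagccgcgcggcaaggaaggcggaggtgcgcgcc
Klf13: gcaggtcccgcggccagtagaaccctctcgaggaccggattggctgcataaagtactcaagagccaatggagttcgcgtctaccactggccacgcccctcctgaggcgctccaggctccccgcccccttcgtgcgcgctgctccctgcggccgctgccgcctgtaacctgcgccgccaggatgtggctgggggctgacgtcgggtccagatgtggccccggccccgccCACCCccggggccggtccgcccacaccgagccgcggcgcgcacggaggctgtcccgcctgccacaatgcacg

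CACCC or GGGTG was found once each in the Klf9 and Klf13 windows and not in that of Klf11, and 57.5% of 32851 RefSeq promoters of this length hold it. The longer GGGNGTGG (reverse CCACNCCC) had 2 matches in the Klf13 window, 1 of which overlaps its CACCC, and 0 in the others, with 17.6% of promoters holding it. The GC box GGGCGG (reverse CCGCCC) had 4 matches in Klf11, 3 in Klf13 and 0 in Klf9, against 35.7% of promoters with a match. CCAAT (reverse ATTGG) matched 3 times in Klf9 and 2 times each in Klf11 and Klf13, against 37.4% of promoters. The half-site TGACGT (reverse ACGTCA) of cyclic AMP response elements had 1 match each in Klf9 and Klf13 (7.51% of promoters). The E-box CACGTG, which clock factors bind, had 1 match in Klf11 (7.15% of promoters). TGATGNAA (reverse TTNCATCA), a form of the element that ATF4 binds, had no match in these 3 windows and one in 3.97% of promoters. The windows were 63.3% (Klf9), 77.7% (Klf11) and 72.0% (Klf13) GC, against a median of 52.7% over all promoters.

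The comparisons with 0h ask which of the genes differed from 0h after 6, 12 and 24 hours. All 5 members were called higher at 6h, 12h and 24h, while 9.74%, 22.1% and 26.1% of all genes tested were called higher (edgeR's quasi-likelihood test, adjusted p under 0.05 by Benjamini-Hochberg over all 14263 genes). The sizes fell into unequal ranges: the fitted fold change was between 1.73 and 2.56 for Klf10, Klf11 and Klf13 at the 3 later times, for Klf9 between 1.34 and 1.57, and for Klf16 between 1.13 and 1.19. The median log2 fold change of the 5 was 0.79 at 6h, 1.0 at 12h and 0.84 at 24h, beside medians of -0.0036, 0.0018 and 0.017 over all genes tested. For each of the 5 genes both libraries of every later time stood above both 0h libraries, an order that 27.3%, 35.9% and 38.9% of all genes showed at 6h, 12h and 24h. Against a fold of 1.5, Klf10, Klf11 and Klf13 passed at 6h and 12h, and Klf10 and Klf13 at 24h. In bulk RNA a change per cell and a change in the share of cells that express a gene cannot be told apart.

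**Figure D1:**
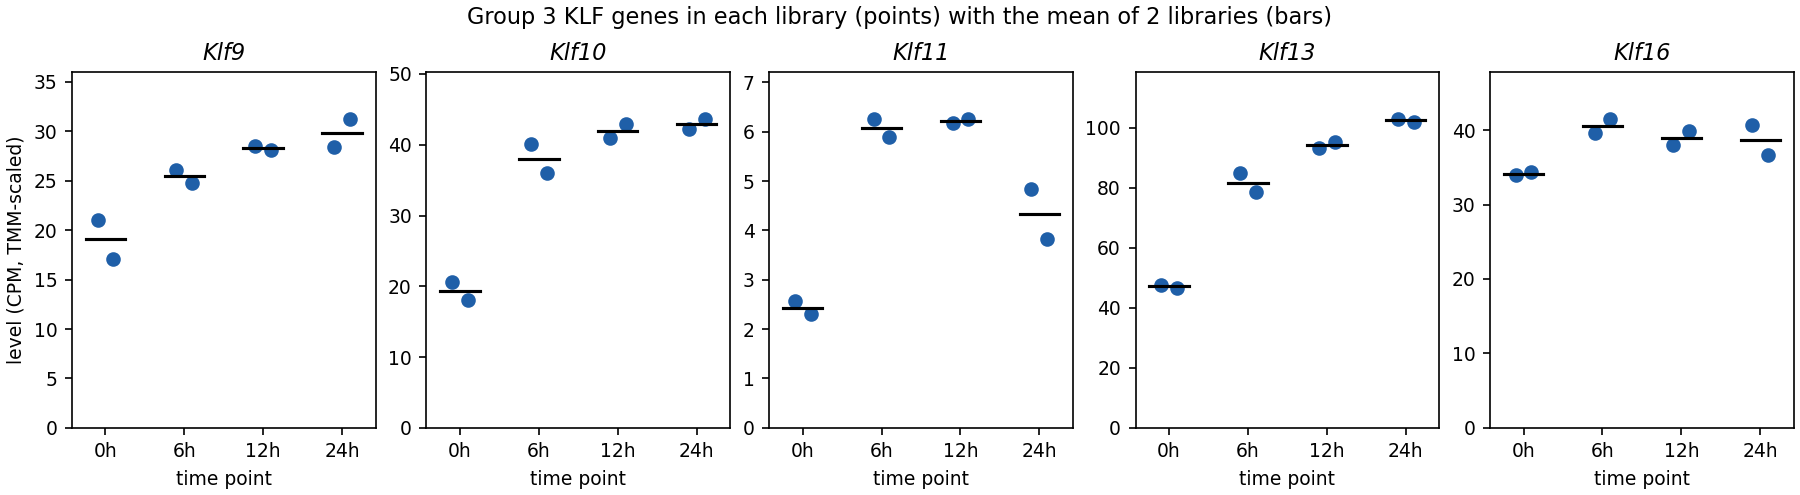
Level of each group 3 KLF gene in each of the 8 libraries (points; CPM, TMM-scaled, each panel with its own axis from 0) by time point, with bars at the mean of 2 libraries. Klf10 and Klf13 rose by 6h and stayed up, Klf11 was highest at 6h and 12h and lower at 24h, Klf9 rose less, and Klf16 stood between 33.9 and 41.5 CPM in all libraries.

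Klf10 (TIEG1), the first of the TGF-beta inducible pair, stood at 20.6 and 18.0 CPM at 0h, 40.0 and 36.0 CPM at 6h, 40.9 and 43.0 CPM at 12h, and 42.2 and 43.7 CPM at 24h. The 0h libraries were the lowest, and all 6 later libraries lay within 36.0 and 43.7 CPM. The log2 fold change against 0h was 0.98 ± 0.08 (SE) at 6h (1.97-fold, adjusted p = 1.4e-12 by edgeR), 1.12 ± 0.08 at 12h (adjusted p = 7e-15) and 1.16 ± 0.07 at 24h (adjusted p = 1.2e-15). At 6h its log2 fold change was in place 579 of 14263 from the largest rise. From 6h to 12h the difference was 0.14 (95% interval 0.01 to 0.28, not called) and from 12h to 24h 0.03 (-0.10 to 0.17, not called). Klf10 was called higher at 24h than at 6h, by 0.18 ± 0.07 (adjusted p = 0.034 by edgeR). That last call did not pass when 6h replicate 2 (0.10) or either 24h library (0.20 and 0.15 without replicates 1 and 2) was left out, with DESeq2 (0.17) and with no filter on low counts (0.16), and the 12h against 6h difference was called without 6h replicate 1 (0.22).

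Klf11 (TIEG2), its close relative, was the least abundant of the 5, with 51 and 50 counts at 0h. Its level was 2.56 and 2.30 CPM at 0h, 6.25 and 5.90 CPM at 6h, 6.18 and 6.27 CPM at 12h, and 4.85 and 3.84 CPM at 24h. Its fitted fold change was the largest of the 5 at 6h and 12h, although its level in CPM stayed the lowest of the 5, and at 24h both libraries lay between those of 0h and those of 6h and 12h. The log2 fold change was 1.32 ± 0.18 (SE) at 6h (2.49-fold, 95% interval 1.94 to 3.21; adjusted p = 6.1e-07 by edgeR), 1.36 ± 0.18 at 12h (adjusted p = 9.3e-08) and 0.84 ± 0.19 at 24h (adjusted p = 0.00028). Klf11 then fell by 0.52 ± 0.15 from 12h to 24h (adjusted p = 0.032) and was 0.48 ± 0.15 lower at 24h than at 6h on the log2 scale (adjusted p = 0.015). Klf11 was the only member called lower in any comparison, where 3.04% of all genes were called lower at 24h against 12h and 16.1% at 24h against 6h. The fall from 12h was not called by DESeq2 (-0.53) or with either 12h library left out (-0.53 and -0.51 without replicates 1 and 2), and not without 24h replicate 2 (-0.36). The difference from 6h was not called by DESeq2 (-0.49), or without 6h replicate 1 (-0.45) or 24h replicate 2 (-0.33).

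Klf9 (BTEB1), the hormone-responsive member, stood at 21.1 and 17.1 CPM at 0h, 26.1 and 24.8 CPM at 6h, 28.6 and 28.1 CPM at 12h, and 28.4 and 31.3 CPM at 24h. The 0h libraries were the lowest and also the furthest apart in relative terms, and the 12h and 24h libraries overlapped. The log2 fold change was 0.42 ± 0.09 (SE) at 6h (1.34-fold, adjusted p = 0.00048 by edgeR), 0.57 ± 0.08 at 12h (adjusted p = 8.3e-07) and 0.65 ± 0.08 at 24h (1.57-fold, adjusted p = 3.8e-08). The 6h call was lost without 0h replicate 2, where the log2 fold change was 0.27. Klf9 was higher at 24h than at 6h by 0.23 ± 0.08 (adjusted p = 0.021), a call lost with DESeq2 (0.23) and without 6h replicate 2 (0.19) or 24h replicate 2 (0.16). The steps from 6h to 12h (0.16, 95% interval -0.0048 to 0.32) and from 12h to 24h (0.07, -0.08 to 0.23) were not called.

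Klf13 (BTEB3), known for Ccl5 and erythroid genes, had the most counts of the 5, 950 and 1013 at 0h and 2723 and 2528 at 24h. Its level was 47.7 and 46.6 CPM at 0h, 84.9 and 78.6 CPM at 6h, 93.3 and 95.4 CPM at 12h, and 103 and 102 CPM at 24h. No 2 time points overlapped, and each lay above the one before. The log2 fold change was 0.79 ± 0.05 (SE) at 6h (1.73-fold, adjusted p = 4.1e-14 by edgeR), 1.0 ± 0.05 at 12h (2.0-fold, adjusted p = 1e-17) and 1.12 ± 0.05 at 24h (2.17-fold, adjusted p = 1.3e-19). Klf13 was the member called higher from 6h to 12h, by 0.21 ± 0.05 (adjusted p = 0.0024), where 10.9% of all genes were called higher. That step was not called without 6h replicate 2 (0.15) or 12h replicate 2 (0.19). From 6h to 24h Klf13 rose by 0.33 ± 0.05 (adjusted p = 2e-06), one of 3 members called higher there with Klf9 and Klf10, where 17.3% of all genes were. Over the same libraries Klf4 fell by 0.96 ± 0.05 from 6h to 24h (adjusted p = 3.7e-17).

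Klf16 (BTEB4), a GC-box binding factor described in brain and other tissues, stood at 33.9 and 34.4 CPM at 0h, 39.7 and 41.5 CPM at 6h, 38.0 and 39.8 CPM at 12h, and 40.7 and 36.6 CPM at 24h. The 0h libraries were the lowest, and the 3 later times overlapped. The log2 fold change was 0.25 ± 0.07 (SE) at 6h (1.19-fold, adjusted p = 0.0064 by edgeR), 0.19 ± 0.07 at 12h (adjusted p = 0.022) and 0.18 ± 0.07 at 24h (adjusted p = 0.024). These calls were not kept when each library was corrected for GC content and gene length with the median gene kept in place, under which Klf16 differed by 0.15, 0.04 and 0.06 at 6h, 12h and 24h. DESeq2 did not call Klf16 at 12h (0.19) or 24h (0.17). They were also lost without 0h replicate 1 (0.24, 0.17 and 0.16) or 0h replicate 2 (0.26, 0.19 and 0.18), and when 6h replicate 2 (0.21), 12h replicate 2 (0.15) or 24h replicate 1 (0.10) was left out of its own comparison. The differences between later times were -0.06 (95% interval -0.19 to 0.07) at 12h against 6h, -0.0087 (-0.14 to 0.12) at 24h against 12h and -0.07 (-0.20 to 0.06) at 24h against 6h, none of them called.

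**Figure D2:**
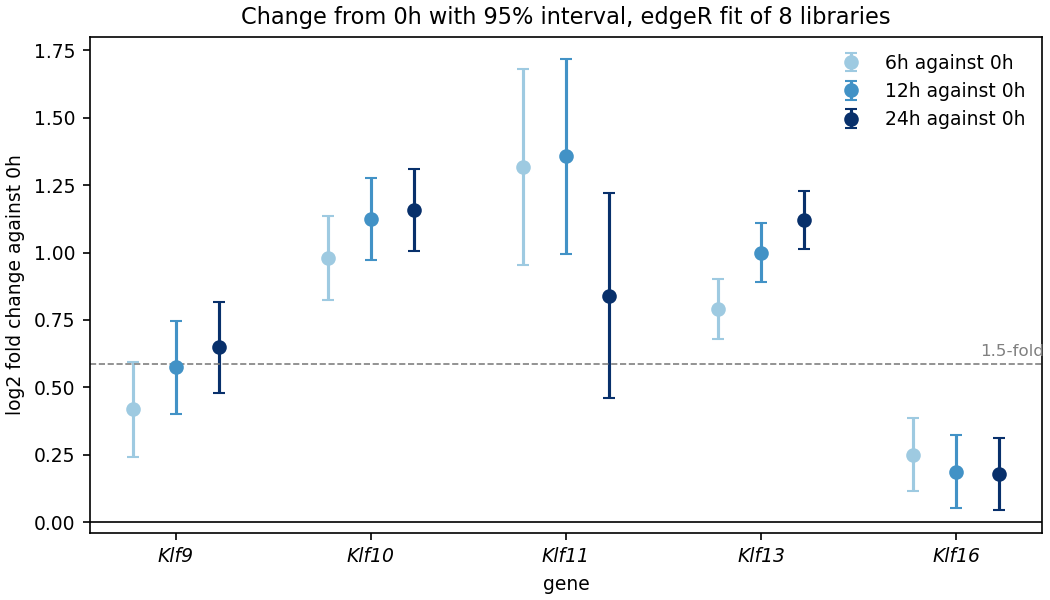
Log2 fold change of each member against 0h at 6h, 12h and 24h (points) with 95% intervals from the edgeR fit of 8 libraries; the dashed line marks a fold of 1.5. Klf10 and Klf13 lie near a log2 fold change of 1, Klf11 is lower at 24h (0.84) than at 12h (1.36), and Klf16 lies nearest to 0.

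A joint F test over the 3 later times called all 5 members, with adjusted p-values from 6.1e-19 (Klf13) to 0.012 (Klf16), where 52.8% of all genes were called. Of the 5, 1 was called higher from 6h to 12h (Klf13) and 1 lower from 12h to 24h (Klf11). The share of genes called either way was 20.7% for 12h against 6h, 6.46% for 24h against 12h and 33.4% for 24h against 6h.

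Levels of different genes were compared as CPM per kb of exon, where the order differed from that in CPM. At 0h Klf16 was first at 12.8 ± 0.124 CPM per kb (SD, n = 2), followed by Klf13 at 6.27 ± 0.104, Klf10 at 4.61 ± 0.432, Klf9 at 3.96 ± 0.584 and Klf11 at 0.561 ± 0.0425. Klf10 and Klf9 overlapped at 0h, and no other neighbours in this order did at any time. At 24h, though, the lower Klf16 library (13.696 CPM per kb) stood barely above the higher Klf13 library (13.687). The order of the means was kept at 24h. Klf16 then stood at 14.5 ± 1.07 CPM per kb, Klf13 at 13.6 ± 0.0940, Klf10 at 10.3 ± 0.244, Klf9 at 6.20 ± 0.426 and Klf11 at 1.0 ± 0.164. The ratio of Klf16 to Klf13 went from 2.04 at 0h to 1.40 at 6h, 1.16 at 12h and 1.06 at 24h.

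Among 26 KLF and SP genes ranked by CPM per kb at 0h, Klf16 held place 3, after Sp3 and Sp1, and Klf13, Klf10 and Klf9 held places 5 to 7, while Klf11 was in place 15. At 24h Klf4 was first, and the 5 members held places 4, 6, 7, 10 and 15. Summed per kb, the 5 members made up 31.3% and 31.2% of this family's level in the 0h libraries. Their share was 26.4% and 26.2% at 6h, 27.0% and 27.8% in the 12h libraries and 30.7% and 29.4% in the 24h libraries. Every later library lay below both 0h libraries in this share. The family's level includes the induced Klf4, at 1.17 ± 0.396 CPM per kb at 0h, 49.6 ± 0.156 at 6h and 25.5 ± 0.440 at 24h. The share therefore depends on Klf4 as well as on the members. Klf4 reads were divided by the exon length of the annotated gene. Reads of the transgene were not counted apart, and its length is not given in the sources used here, so the Klf4 level per kb and this share are uncertain. The members' own sum went from 28.9 and 27.4 CPM per kb at 0h to 42.5 and 41.1 CPM per kb at 6h and to 46.0 and 45.1 CPM per kb at 24h. The group 1 KLFs, which include Klf4, went from 11.1 and 10.9 CPM per kb to 58.4 and 58.6 CPM per kb at 6h and to 40.7 and 42.1 CPM per kb at 24h.

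**Figure D3:**
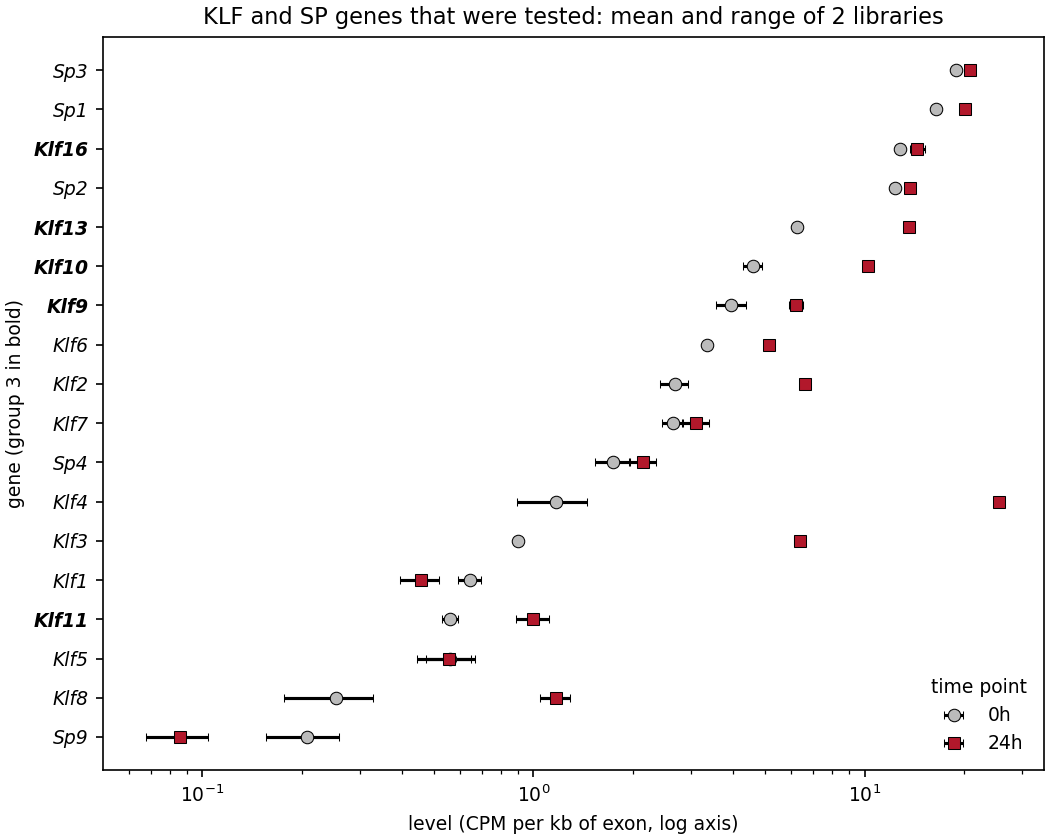
Mean level per kb of exon (log axis) of the 18 KLF and SP genes that were tested, at 0h (circles) and 24h (squares), with bars over the range of 2 libraries and group 3 names in bold. Klf16, Klf13 and Klf10 were among the first 7 genes at both times, Klf9 went from place 7 to place 10, and Klf13 moved from 6.27 to 13.6 CPM per kb.

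For comparison, 4 of 6 group 1 KLFs were called higher at 24h against 0h and 0 lower, where 26.1% and 24.8% of all genes were, with a median log2 fold change of 0.43. At 6h 1 of these 6 was called higher, the induced Klf4. Klf2, a regulator of quiescence, was not called at 6h (-0.15 ± 0.15, SE) and rose by 1.60 ± 0.12 at 12h, and Klf6, an early response gene, differed by -0.23 ± 0.10 at 6h (not called) and rose by 0.70 ± 0.09 at 12h. Both tested CtBP-binding KLFs, Klf3 and Klf8, were called higher at each time, by 2.82 ± 0.08 and 2.22 ± 0.23 at 24h. Among 5 tested SP genes, calls at 24h were 4 higher and 1 lower, with a median of 0.16. The 4 became 1 with DESeq2 and without 0h replicate 2 or 24h replicate 2, and the lower one, Sp9, was not called with DESeq2, the stricter filter, or without 0h replicate 1 or 24h replicate 1. Whether group 3 differed from these sets was not tested.

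The members were also compared with each other and with other genes by their course over the 8 libraries. The measure was the root mean square (RMS) difference of log2 CPM after each gene was centred on its own mean. Genes were not scaled, so it reflects the size of a change as well as its shape. Klf10 and Klf13 were the closest pair by this measure, at 0.086 (Pearson's r 0.99 over 8 libraries). Klf11 and Klf16 were the furthest apart, at 0.46, though their r was 0.89. The lowest r was that of Klf9 and Klf16, at 0.61 (RMS difference 0.22). These values describe 8 libraries that share 4 time points. Among 8769 genes with a mean log2 CPM of 3 or more, the 3 nearest to Klf13 included Tmc8 (0.040), a channel-like membrane protein gene, and Jdp2 (0.062), an AP-1 family repressor. The nearest to Klf10 were Add3 (0.082), a membrane skeleton gene, Ticam2 (0.093), a Toll-like receptor adaptor gene, and the lysosomal channel gene Tpcn1 (0.094). Klf9 was nearest to Ulk3 (0.065), Iqsec2 (0.065) and the receptor gene Notch2 (0.072). Klf11 had no neighbour as near, with Dclk2 at 0.14, Sidt2 at 0.16 and Paqr4 at 0.18. With 50 to 150 counts per library, counting noise may add to the distance of Klf11 from any gene. Its level, at most 6.27 CPM, also lay below the one asked of the genes it was compared with. Dclk2, like Klf11, had a smaller log2 fold change at 24h (0.64) than at 6h (1.12). Klf16 was nearest to Arhgef10l (0.037), Slc8b1 (0.037) and Fez2 (0.039), genes that also moved little.

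In the annotation Klf10, Klf11 and Klf16 overlap no other gene. Klf9 holds the microRNA gene Mir1192, with 0 to 1 counts per library at 0h and 6h and 5 to 8 at 12h and 24h. Klf13 overlaps 2 genes on the opposite strand, Gm27252 with 2 to 11 counts and E030018B13Rik with 0 to 11 counts per library, against 950 or more for Klf13. The strand setting of the counting is not given in the sources used here, so reads of these partners and of Klf13 cannot be told apart with certainty. The nearest tested protein-coding genes beside Klf16 are Rexo1, 5564 bases away, and Abhd17a, 6333 bases away. Rexo1 was higher at 24h by 0.43 ± 0.04 (SE; adjusted p = 2.9e-10 by edgeR), and Abhd17a was lower, at -0.24 ± 0.05 (adjusted p = 9.1e-05). Beside Klf11, Grhl1 at 33883 bases was called higher at 24h (0.97 ± 0.23) and Rrm2 at 45452 bases was not (0.08 ± 0.04). Beside Klf10, Azin1 at 186721 bases fell by 0.20 ± 0.04 at 24h. Beside Klf9, Smc5 at 38317 bases was called at 0.14 ± 0.05 and Cemip2 at 1282866 bases was not called (0.07 ± 0.05). Neither neighbour of Klf13, Ube3a at 4574815 bases (0.03 ± 0.04) and Mtmr10 at 348738 bases (-0.0004 ± 0.13), was called.

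The SIN3-HDAC complex is the partner through which these factors repress. Of 23 tested genes of the complex, 6 were called higher and 7 lower at 24h against 0h, where 26.1% and 24.8% of all genes were, so the counts were near the background. They had a median log2 fold change of -0.03, and no called change reached a fold of 1.5. The scaffold gene Sin3a stood at 108 CPM at 0h and 113 CPM at 24h (0.05 ± 0.05, SE, not called), after 0.17 ± 0.05 at 6h (called higher). Its paralog Sin3b was lower at each time and fell by 0.30 ± 0.05 by 24h (adjusted p = 7.3e-06 by edgeR). The deacetylase gene Hdac1 fell from 283 to 225 CPM, by 0.33 ± 0.04 (adjusted p = 1.7e-08), and Hdac2 was not called (-0.03 ± 0.04). Sap18 (-0.45 ± 0.05), Brms1 (-0.44 ± 0.06) and Rbbp7 (-0.35 ± 0.04), which encode further subunits, were also lower. Sap18 has a close copy, Sap18b (0.599 CPM at 0h, not called), so reads may be split between them and both are uncertain. Ogt, which encodes the enzyme that attaches N-acetylglucosamine to proteins and binds SIN3A, rose by 0.45 ± 0.04, and Phf12, a reader subunit, by 0.29 ± 0.05. The 6 higher became 2 with DESeq2, 2 without 0h replicate 1 and 3 without 0h replicate 2, and the 7 lower became 11 with a GC and length correction that moved the mean gene to 0.

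**Figure D4:**
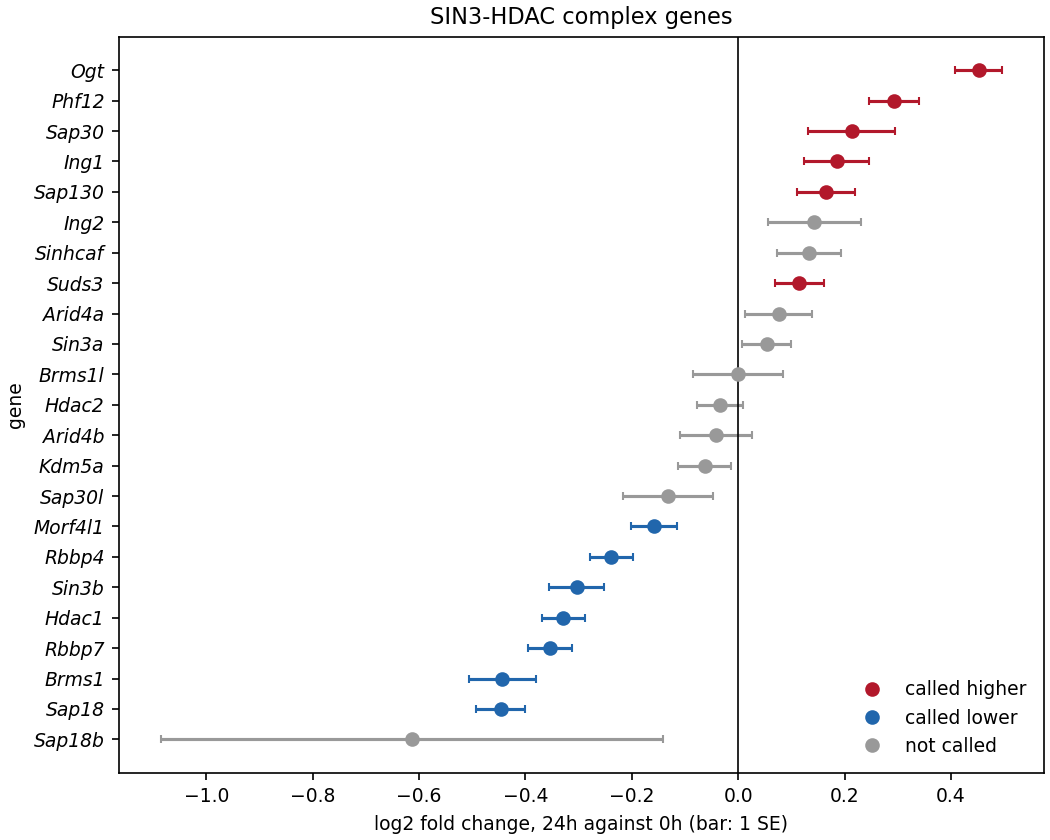
Log2 fold change at 24h against 0h of the 23 tested SIN3-HDAC complex genes (points; bars are 1 SE; colours give the call). The called changes run from -0.45 (Sap18) to 0.45 (Ogt), and Sin3a and Hdac2 were not called.

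TGF-beta signals through SMAD proteins and is the known inducer of Klf10 and Klf11. Of 21 tested genes of this pathway 8 were called higher and 1 lower at 24h (26.1% and 24.8% of all genes), with a median of 0.10. The receptor genes Tgfbr1 (-0.08 ± 0.06, SE) and Tgfbr2 (-0.04 ± 0.07) and the ligand gene Tgfb1 (-0.05 ± 0.04) were not called. Smad3, a signal transducer, rose by 1.01 ± 0.15 (from 3.93 to 7.90 CPM; adjusted p = 9.3e-07 by edgeR), the SMAD corepressor gene Skil by 0.69 ± 0.09 and Id3, an inhibitor of basic helix-loop-helix factors, by 3.31 ± 0.36 from 0.331 CPM. Id1 fell by 0.38 ± 0.06. Smad7, which feeds back on the receptor and which KLF10 and KLF11 are known to repress, was not called at 6h (-0.01 ± 0.15) or 12h (0.15 ± 0.15) and stood at 0.40 ± 0.14 at 24h (adjusted p = 0.020). The 8 higher became 5 with DESeq2 and when either 0h library or 24h replicate 1 was left out. The 1 lower became 2 without 24h replicate 2 and 2 or 3 with the GC and length corrections.

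Glucocorticoid-induced genes, among which Klf9 is counted elsewhere, had 11 of 18 called higher and 2 lower at 24h (all genes: 26.1% and 24.8%), with a median of 0.44. Anxa1, an anti-inflammatory annexin, rose by 1.53 ± 0.06 (SE) and Tsc22d3, the leucine zipper factor GILZ, by 1.01 ± 0.08. The hormone's receptor gene Nr3c1 rose by 0.30 ± 0.06, while Per1 was not called (0.07 ± 0.08) and Cebpd fell by 0.45 ± 0.06. The 2 lower genes became 4 and 5 with the GC and length corrections.

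Calls among 18 tested circadian clock genes were 10 higher and 2 lower at 24h, beside 26.1% and 24.8% of all genes, with a median of 0.26. Bhlhe40, a clock repressor, rose by 1.45 ± 0.11 (SE), Cry2 by 0.88 ± 0.08 and Per3 by 0.63 ± 0.10. Arntl, which activates Klf9 and Klf10 in other tissues, was lower at 6h (-0.23 ± 0.07) and 12h (-0.17 ± 0.07) and was not called at 24h (-0.15 ± 0.07). The 2 lower genes, Tef and Csnk1d, became 1 without 0h replicate 2 and 4 when the correction centred the mean gene.

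Of 21 genes named in earlier work as targets of group 3 factors, 11 had enough counts to be tested, and 3 were called higher and 4 lower at 24h (26.1% and 24.8% over all genes), with a median of -0.10. Cyp11a1, a steroid synthesis gene, fell by 0.73 ± 0.06 (SE; adjusted p = 1.9e-12 by edgeR), and the survival gene Bcl2l1, which KLF13 is known to repress, by 0.38 ± 0.07 (adjusted p = 9.8e-06). Txnrd2, a mitochondrial thioredoxin reductase gene that KLF9 is known to repress, was not called at 6h (0.02 ± 0.08) and fell by 0.33 ± 0.08 at 24h. Prdx3, a mitochondrial peroxidase gene, fell by 0.12 ± 0.04. Myc was not called at 6h (-0.02 ± 0.04), fell by 0.26 ± 0.04 at 12h and was not called at 24h (-0.07 ± 0.04). Ccl5 was not among the genes with enough counts. The 3 higher became 1 with DESeq2, with both GC and length corrections, and without 0h replicate 2 or 24h replicate 1. Some of these genes are also in the TGF-beta, clock or glucocorticoid lists.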

How the data were processed

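The deposited values are raw counts per Ensembl gene, 1 file per library, which the authors counted on genome build mm10. The submitters' processing notes name HTSeq 2.0.3, STAR and SAMtools 1.3. RNA came from an RNeasy kit and libraries from a TruSeq PE kit, per the labels' protocols. Annotation release, strand setting and STAR version: not given in the sources used here. Of 47069 gene rows 46574 matched GENCODE M21. The 5 summary rows per file were left out; fragments in no gene feature rose from 5.25% of a library at the lowest (0h) to 9.27% (24h), and ambiguous ones made up 5.00% to 5.50%. No libraries were identical.

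One edgeR 4.0.16 quasi-likelihood fit (R 4.3.3) held all 8 libraries with a mean per time point, filterByExpr and TMM, which left 4 residual degrees of freedom. Calls were two-sided at a Benjamini-Hochberg adjusted p under 0.05 over all 14263 genes. The SE of a log2 fold change is its size divided by the square root of F. CPM per kb used merged exons. The pipeline was tested on simulated data. Members and lists (other KLFs and SPs, SIN3-HDAC, TGF-beta, glucocorticoid, clock, reported targets, cell type markers) were chosen with earlier results of these data known. Named were all members, up to 4 called genes per list, direction and comparison by smallest adjusted p, the 3 nearest genes by RMS difference (predicted gene models left out) and the nearest tested neighbours; other list genes (such as Sin3a, Hdac2, Tgfbr1, Nr3c1 and Per1) were chosen after their values were seen. Alternatives were DESeq2 1.42.0, its size factors, 2 other filters, a replicate block, fits of 4 libraries, a fold of 1.5, 2 GC and length corrections and leaving out each library. Some genes that the rule names are not reported here.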

Additional observations from a re-analysis of the deposited data

How the results depend on the processing

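Against 0h, the log2 fold changes of the 5 members kept their direction under all 17 alternatives, and 229 of 255 values stayed on their side of the threshold; with Klf16 left out, 199 of 204 did. Tested against a fold of 1.5, 3, 3 and 2 members passed at 6h, 12h and 24h against 0h, and 0 at 12h against 6h, 24h against 12h and 24h against 6h; over all genes 213, 600, 953, 85, 41 and 319 passed. With DESeq2 0 members were called at 24h against 12h and 1 at 24h against 6h, and over all genes 1668 at 6h against 0h, 1632 at 12h against 6h, 450 at 24h against 12h and 3160 at 24h against 6h, where edgeR called 2613, 2947, 921 and 4765. The GC and length correction that kept the median gene called 2 members at 12h against 6h. Leaving out each library in turn called 3 to 5 members at 6h against 0h, 0 to 2 at 12h against 6h, 0 to 1 at 24h against 12h and 1 to 4 at 24h against 6h, and 1319 to 2715, 1296 to 3061 and 373 to 1256 of all genes in the first 3 of these. Values that changed sign were near 0 and not called. Klf11 at 12h against 6h was -0.0075 without 6h replicate 2, and its highest value over the 17 alternatives was 0.0746. Klf10 at 24h against 12h was -0.0025 without 12h replicate 1, and its highest was 0.0707. Klf16 at 24h against 12h ran from -0.0879 to 0.0623 over the 17 alternatives. It was above 0 with the 2 GC and length corrections (0.0156 and 0.0065) and without 12h replicate 2 or 24h replicate 2. With the mean gene centred, 36.7% of the 6h calls were higher, against 53.2%. With the replicate number as a block 5, 5 and 5 members were called against 0h and no member's call changed; the labels do not say that a number pairs libraries, and replicate differences correlated at -0.17 to 0.19 between times. Of 918 list counts 809 stayed within 1.5 times. The cause of these changes was not tested. Klf11, with 50 to 150 counts per library, is the member that depth limits most.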
